A study of Drosophila melanogaster with 18 samples.

Results

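Lactate dehydrogenase (Ldh) and 9 enzymes of glycolysis were followed through endoplasmic reticulum (ER) stress in Drosophila S2 cells, a line derived from embryos that resembles hemocytes, the blood cells of the fly. The members were the rows of the deposited table whose probe number is the CG number of Pgi (8251), Pfk (4001), Ald1 (6058), Tpi (2171), Gapdh2 (8893), Pgk (3127), Pglym78 (1721), Eno (17654), PyK (7070) or Ldh (10160). All 10 genes had 1 probe each, 10 of the 7257 probes on the array and of 6980 genes named by CG number, and all 10 passed the requirement of at least 2 values in each group of every comparison. The study took cells without RNAi (control), cells given dsRNA against XBP-1, and cells given dsRNA against IRE1, each with no DTT and with 2 mM DTT for 7.4 hours, with 3 arrays in each of the 6 groups. The dsRNA was added at about 15 µg/ml in repeated rounds, and control cells received none, so a difference between RNAi and control includes any effect of dsRNA as such. On each array the sample, labelled with Cy5, was hybridised beside 1 common reference, labelled with Cy3, in which RNA of untreated and DTT-treated S2 cells was pooled with RNA of embryos. A value is therefore the log ratio of sample to reference for a probe, read here as log2, and values of different genes cannot be set against each other as levels. Whole cultures were measured, so a change in every cell and a larger change in some cells cannot be told apart.

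Glycolysis turns glucose into pyruvate in the cytosol and yields ATP and NADH. Lactate dehydrogenase reduces pyruvate to lactate and gives back the NAD+ that the glyceraldehyde-3-phosphate dehydrogenase step needs, which lets the pathway run without respiration. DTT reduces disulphide bonds and so disturbs protein folding in the ER. IRE1 is a sensor of that stress in the ER membrane, and it splices the messenger RNA of the transcription factor XBP-1.

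An array held between 3755 and 6696 values, array medians ran from -0.81 to 0.24, and the correlation across probes between arrays within a group was 0.639 to 0.876. The sparsest was the DTT array A labelled IRE1 RNAi, with 48.3% of its cells empty. In control cells without DTT, all 9 measured markers of embryo tissues lay below the array median, with the muscle genes Mlc2 at -5.11 and Mhc at -2.42. Of the 5 measured hemocyte markers, 2 lay above the array median and 3 below, from crq at 0.20 to NimC1 at -1.77. With DTT 1 of 5 tested hemocyte markers fell in each arm. Of the embryo markers tested 1 of 9 fell in control cells, and 1 of 8 in either RNAi arm. No marker rose. Of all probes 4.45% (control), 11.8% (XBP-1) and 10.5% (labelled IRE1) fell and 7.25%, 4.53% and 3.48% rose, so the embryo counts in the RNAi arms are near the share that fell. The IRE1 probe went against its label: without DTT it stood at 2.06, 2.06 and 0.13 on the arrays carrying that label, against -0.69, -0.78 and -0.60 in control cells. That difference without DTT, 2.11 ± 0.47 (SE), did not pass the test (limma, adjusted p = 0.577). With DTT the IRE1 probe was 2.04 ± 0.47 (SE) higher than in control cells (limma, adjusted p = 0.0127), so those arrays are called here by their label. Both XBP-1 probes were lower under XBP-1 RNAi, by -0.38 ± 0.36 and -0.41 ± 0.36 without DTT, but neither difference passed the test (adjusted p = 0.959 for both). With DTT the differences were -0.39 ± 0.36 and -0.65 ± 0.36, and neither passed (limma, adjusted p = 0.999 and 0.921). Whether these probes lie in the stretch covered by the dsRNA is not stated.

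With DTT, Ldh, the early glycolytic enzymes Pfk, Ald1 and Tpi, and the later Gapdh2 and Eno rose in control cells. Ldh rose 58.1-fold, Pfk 6.38-fold, Ald1 3.98-fold and Tpi 3.72-fold, and Eno and Gapdh2 rose 2.47-fold and 2.31-fold. In the limma fit 6 of the 10 members rose and 0 fell at an adjusted p under 0.05, where 7.25% of all 5935 probes tested rose and 4.45% fell. At an unadjusted p under 0.05, 9 members were higher and 0 lower, and 1284 of the 5935 probes were under it in either direction. Leaving out 1 array at a time gave 4 to 8 members: 4 without replicate B without DTT or without A or C with DTT, and 8 without replicate A without DTT. With the replicate letter as a block 9 members rose, against 11.7% of all probes. That fit removes what arrays of a letter share and also gives all probes 1 common variance. Which of these changed a call was not tested. The median change of the 10 members was 1.45 on the log2 scale, and 1.31 without Ldh, against 0.15 for all probes tested. Of the 10 members, 8 had all DTT arrays above all arrays without DTT, as did 15.2% of all probes. Those not separated were Pgk and Pglym78.

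**Figure D1:**
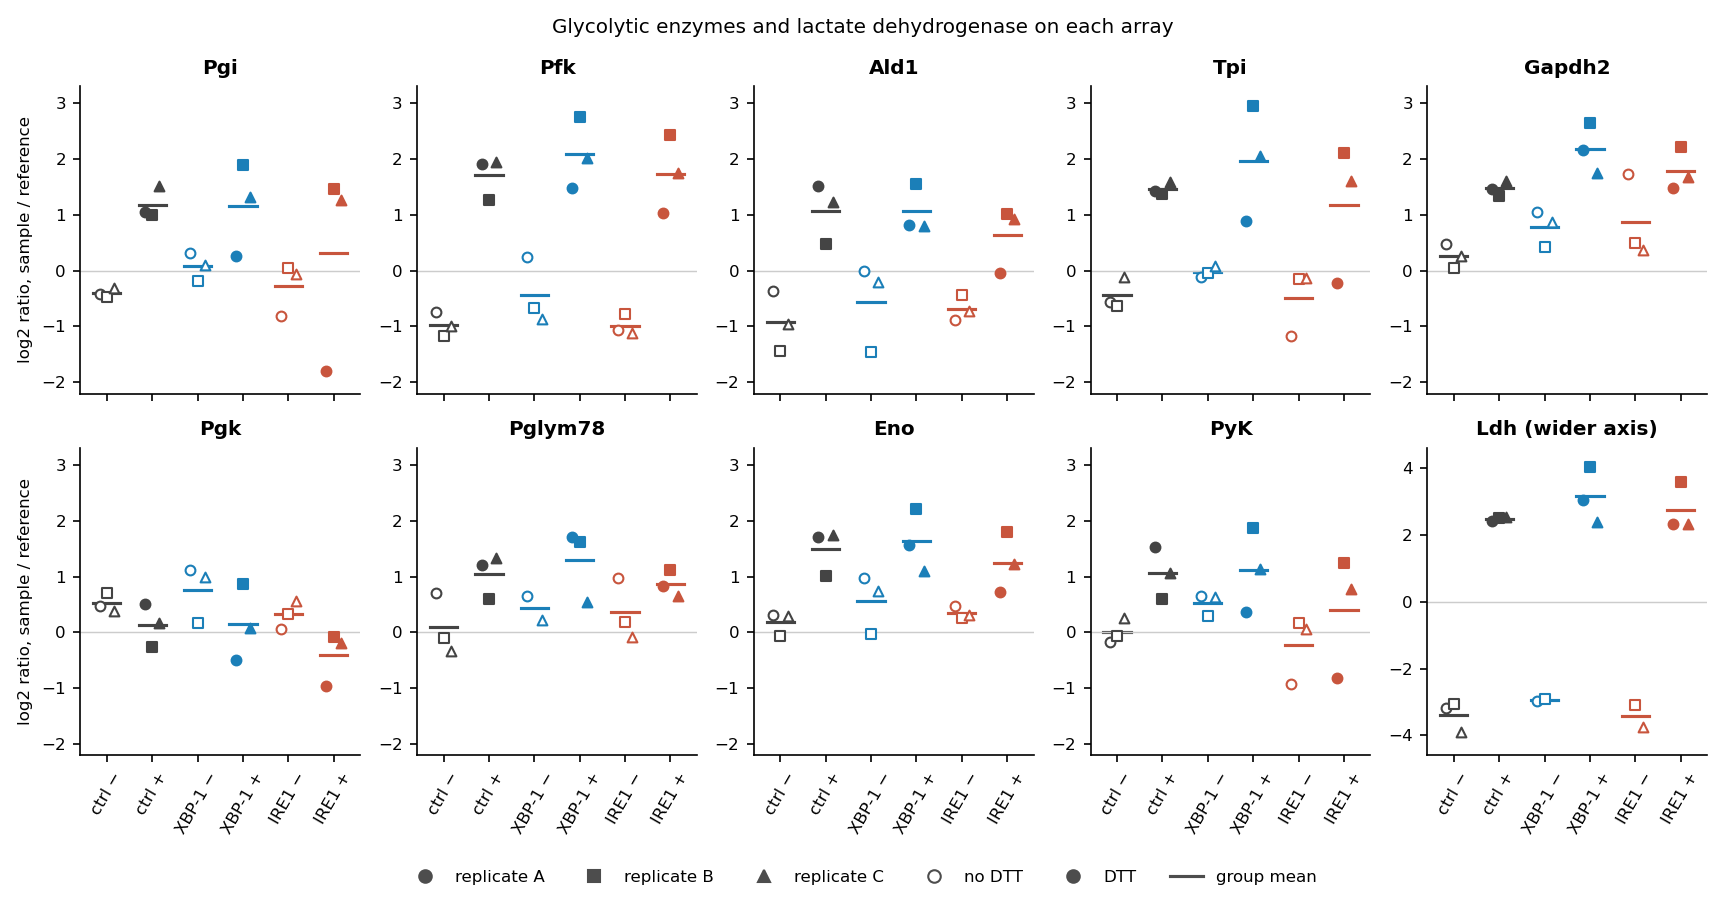
Log2 ratio of sample to reference (y axis) of each of the 10 members on each array, by group (x axis: control, XBP-1 RNAi and the arrays labelled IRE1 RNAi, without (−) and with (+) DTT). Open symbols are arrays without DTT and filled symbols arrays with DTT, the shape gives the replicate letter and the bar is the group mean. Ldh, drawn on a wider axis, lies below -2.9 on every measured array without DTT and above 2.3 on every array with DTT.

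Ldh showed the widest separation. In control cells it stood at -3.18, -3.05 and -3.91 without DTT and at 2.40, 2.51 and 2.53 with DTT. The groups did not overlap, and the change of 5.86 ± 0.41 (SE; adjusted p = 1.72e-10) was the second highest of 5935 probes. Under XBP-1 RNAi it stood at -2.98 and -2.92 without DTT, where replicate C had no value, and at 3.04, 4.02 and 2.38 with DTT. That change was 6.10 ± 0.45 (adjusted p = 2.42e-10, 68.4-fold), the highest of 5649 probes. The arrays labelled IRE1 RNAi gave -3.10 and -3.75 without DTT, with no value for replicate A, and 2.33, 3.59 and 2.32 with DTT. Here the change was 6.17 ± 0.46 (adjusted p = 2.93e-10, 72.1-fold), again the second highest, of 5833 probes. In both RNAi arms the fold thus rests on 2 low values without DTT. Per the labels dim spots were taken out, and whether this left the missing Ldh values empty was not tested. By group mean the order ran from the arrays labelled IRE1 RNAi, control and XBP-1 RNAi, all without DTT, to control (2.48 ± 0.07, SD, n = 3), the arrays labelled IRE1 RNAi (2.75 ± 0.73) and XBP-1 RNAi (3.15 ± 0.83) with DTT. Neighbours in that order differed by no more than the spread between their arrays, except across the gap between arrays without and with DTT.

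In the preparatory part of the pathway, Pgi converts glucose 6-phosphate to fructose 6-phosphate. Its control arrays stood at -0.42, -0.47 and -0.32 without DTT and at 1.04, 0.99 and 1.51 with DTT. The groups did not overlap, yet the change of 1.58 ± 0.53 missed the threshold (adjusted p = 0.0503). With the replicate letter as a block the same change passed (adjusted p = 1.75e-05), in a fit that replaces the spread of Pgi by 1 common to all probes. With centring and the block, where Pgi keeps part of its own spread, the change was 1.46 (adjusted p = 0.00632). The spread used for the test without the block came largely from another group: on the arrays labelled IRE1 RNAi with DTT, Pgi stood at -1.80, 1.46 and 1.26. Without that low array, A, the control change was unaltered and its adjusted p was 0.00411, and it passed without any of 10 arrays taken in turn.

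Pfk catalyses the committed step, the phosphorylation of fructose 6-phosphate. It stood at -0.74, -1.17 and -1.0 in control cells without DTT and at 1.91, 1.26 and 1.94 with DTT, a change of 2.67 ± 0.39 (adjusted p = 1.4e-05). Its groups were apart in every arm. Under XBP-1 RNAi it moved from 0.24, -0.67 and -0.86 to 1.48, 2.75 and 2.01, and on the arrays labelled IRE1 RNAi from -1.06, -0.78 and -1.11 to 1.03, 2.43 and 1.74. These were changes of 2.51 ± 0.39 (adjusted p = 3.02e-05) and 2.72 ± 0.39 (adjusted p = 1.75e-05). After Ldh, Pfk had the largest change of the members in all 3 arms.

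Ald1 is the aldolase that splits fructose 1,6-bisphosphate, and Tpi interconverts the triose phosphates that result. In control cells Ald1 stood at -0.36, -1.44 and -0.96 without DTT and at 1.52, 0.47 and 1.23 with DTT, a rise of 1.99 ± 0.41 (adjusted p = 0.000956). The values of Tpi were -0.57, -0.64 and -0.11 without DTT and 1.42, 1.36 and 1.58 with DTT, a rise of 1.89 ± 0.47 (adjusted p = 0.00641). Neither gene's groups overlapped. Under XBP-1 RNAi Ald1 rose by 1.62 ± 0.41 (adjusted p = 0.00494), but by 1.17 with an adjusted p of 0.0549 without replicate B without DTT, where it stood at -1.46. Tpi went there from -0.11, -0.05 and 0.08 to 0.88, 2.94 and 2.04, a rise of 1.98 ± 0.47 (adjusted p = 0.00309). Ald1 and Tpi rose by 1.32 ± 0.41 (adjusted p = 0.0274) and 1.65 ± 0.47 (adjusted p = 0.0164) on the arrays labelled IRE1 RNAi. Tpi overlapped there, since replicate A stood at -1.17 without DTT and only reached -0.23 with it. Both calls on the arrays labelled IRE1 RNAi rested on single arrays: without replicate A without DTT, or without replicate B with DTT, Ald1 and Tpi did not pass (Ald1 1.22 and 1.12, Tpi 1.31 and 1.18), nor did Ald1 without replicate C with DTT (1.17).

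The second part of glycolysis makes ATP. Gapdh2, which oxidises glyceraldehyde 3-phosphate, stood in control cells at 0.48, 0.04 and 0.26 without DTT and at 1.46, 1.34 and 1.61 with DTT. It rose by 1.21 ± 0.37 (adjusted p = 0.0272), and under XBP-1 RNAi by 1.40 ± 0.37 (adjusted p = 0.00672), with groups apart in both arms. The control call was lost when replicate B or C without DTT, or A or C with DTT, was left out (1.10 to 1.22). On the arrays labelled IRE1 RNAi Gapdh2 moved from 1.73, 0.50 and 0.37 to 1.48, 2.21 and 1.67, a change of 0.92 ± 0.37 that missed the threshold (adjusted p = 0.096). With the block it passed (adjusted p = 0.0226), and without replicate A without DTT, the array at 1.73, the change was 1.35 with an adjusted p of 0.0202.

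Pgk, which makes ATP from 1,3-bisphosphoglycerate, stood apart from the other members: it was the only one of the 10 with a negative change, and it was negative in all 3 arms. In control cells Pgk went from 0.48, 0.71 and 0.39 to 0.51, -0.26 and 0.17, and the groups overlapped. On the arrays labelled IRE1 RNAi it went from 0.07, 0.33 and 0.57 to -0.95, -0.08 and -0.18, with all DTT arrays below all others, as for 26.4% of all probes there. The changes were -0.39 ± 0.37 in control cells (adjusted p = 0.619), -0.60 ± 0.37 under XBP-1 RNAi (adjusted p = 0.324) and -0.73 ± 0.37 on the arrays labelled IRE1 RNAi (adjusted p = 0.227), and none passed.

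Pglym78, the phosphoglycerate mutase, stood in control cells at 0.71, -0.10 and -0.34 without DTT and at 1.21, 0.59 and 1.34 with DTT. Replicate A without DTT lay above replicate B with DTT, and the change of 0.96 ± 0.39 missed the threshold (adjusted p = 0.122). It passed with the block (adjusted p = 0.0192), and also without that replicate A, where it was 1.27 (adjusted p = 0.0255). In the other arms its change was 0.86 ± 0.43 (XBP-1 RNAi, adjusted p = 0.197) and 0.51 ± 0.39 (labelled IRE1 RNAi, adjusted p = 0.482). With each array centred on its median both passed, at 1.15 (adjusted p = 0.00518) and 0.79 (adjusted p = 0.0321), and both also passed with quantile normalization.

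Eno makes phosphoenolpyruvate, and PyK, the pyruvate kinase, makes pyruvate and ATP from it. Eno stood in control cells at 0.31, -0.07 and 0.30 without DTT and at 1.70, 1.01 and 1.75 with DTT, and it rose by 1.31 ± 0.37 (adjusted p = 0.0164). Its groups were apart in all 3 arms. Under XBP-1 RNAi Eno rose by 1.06 ± 0.37 (adjusted p = 0.0449), and on the arrays labelled IRE1 RNAi its change was 0.90 ± 0.37 (adjusted p = 0.109; with the block 0.0272). The calls for Eno were fragile: the control call was lost when replicate B without DTT, or A or C with DTT, was left out (1.18 to 1.20), and the call under XBP-1 RNAi when any of 7 arrays was left out (down to 0.77). PyK stood in control cells at -0.17, -0.06 and 0.25 without DTT and at 1.52, 0.60 and 1.06 with DTT. These groups did not overlap, but the change of 1.05 ± 0.44 did not pass without the block (adjusted p = 0.138, with the block 0.00815).

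Under XBP-1 RNAi the same count of members, 6 of 10, rose and 0 fell, and they were the same 6 genes as in control cells. At an unadjusted p under 0.05 in this arm 6 were higher and 0 lower, with 1555 of 5649 probes under it in either direction. There 4.53% of 5649 probes rose and 11.8% fell, and the median change was 1.24 for the members and -0.08 for all probes. PyK moved from 0.65, 0.29 and 0.64 to 0.37, 1.86 and 1.14 and Pgi from 0.32, -0.18 and 0.10 to 0.26, 1.89 and 1.32. Both overlapped because replicate A with DTT was low, and their changes of 0.60 ± 0.44 (adjusted p = 0.421) and 1.08 ± 0.53 (adjusted p = 0.183, with the block 0.00497) did not pass. Without the sparse DTT array A labelled IRE1 RNAi, which enters the shared spread, Pgi passed (adjusted p = 0.0446). With the block 7 members rose, against 8.73% of all probes. In this arm, without replicate B without DTT, the count was 3 of 9 (Pfk, Tpi and Gapdh2), since Ald1 and Eno lost the call and Ldh, left with 1 value, was not tested.

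Of the members, 4 of 10 rose and 0 fell on the arrays labelled IRE1 RNAi, namely Ldh, Pfk, Tpi and Ald1, where 3.48% of 5833 probes rose and 10.5% fell. At an unadjusted p under 0.05, 6 were higher and 0 lower, with 1490 of the 5833 probes under it in either direction. Of the 10 members, 4 had all DTT arrays above all others, as did 6.6% of all probes, and under XBP-1 RNAi 6 did, against 12.0%. The median change was 0.91 for the members and -0.24 for all probes. PyK had a change of 0.64 ± 0.44 (adjusted p = 0.418) and Pgi of 0.58 ± 0.53 (adjusted p = 0.589). Without the sparse DTT array A, the change of Pgi was 1.64 and passed (adjusted p = 0.00864). With the block 6 members rose, against 5.28% of all probes.

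**Figure D2:**
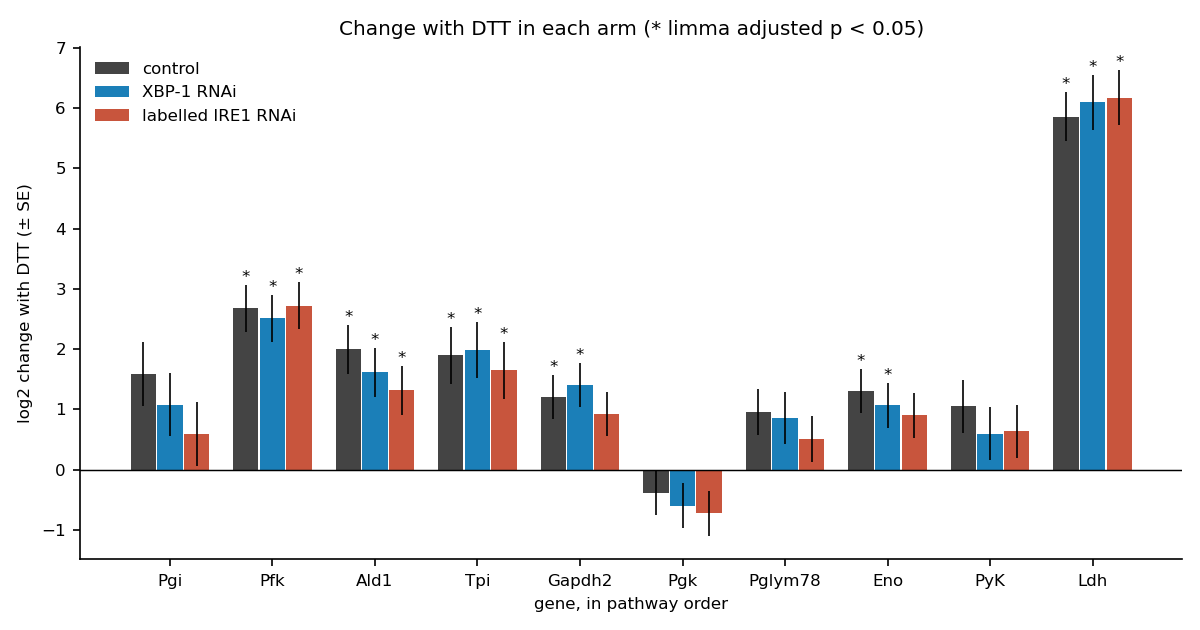
Change with DTT on the log2 scale (y axis; bars are limma estimates, error bars their SE) for the 10 members in pathway order (x axis) in control cells, under XBP-1 RNAi and on the arrays labelled IRE1 RNAi. Stars mark an adjusted p under 0.05. Ldh lies between 5.86 and 6.17 in the 3 arms, Pfk between 2.51 and 2.72, and Pgk is the only member below 0.

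Arrays of a group also differed over the members. The median of the 9 enzymes other than Ldh was 1.46, 0.99 and 1.51 on the control arrays with DTT, against -0.17, -0.10 and -0.11 without. On the arrays labelled IRE1 RNAi with DTT it was -0.04, 1.46 and 1.22, and without DTT -0.81, 0.16 and -0.06, so the median was lowest on replicate A in both. On that array without DTT the members went opposite ways, with 3 of 9 highest of the group (Gapdh2, Pglym78 and Eno) and 5 lowest. Replicate B was highest of the IRE1-labelled DTT arrays in 10 of 10 members and highest of the XBP-1 RNAi DTT arrays in 9 of 10, while among the control DTT arrays it was lowest in 9 of 10. These shifts went only partly with the array's median over all probes: after subtracting it, the 9-enzyme median was 0.60, 1.72 and 2.03 on the IRE1-labelled DTT arrays. Their part in the differences between arms was not tested.

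The question of whether the response to DTT needed XBP-1 or IRE1 is put by the differences of the DTT effects, and no member passed the test of one. At an unadjusted p under 0.05 there were also 0 members in each of these comparisons and in those of RNAi with control below. Of the 10 members 0 passed for XBP-1 RNAi minus control, where 0.802% of 5483 probes passed, all lower, and 439 had an unadjusted p under 0.05. For the arrays labelled IRE1 RNAi minus control 0 of 10 members passed, against 0.0894% of 5594 probes, with 519 under 0.05 unadjusted. Both comparisons use the same control arrays. The Ldh effect differed from that in control cells by 0.24 under XBP-1 RNAi (95% interval -1.01 to 1.48) and by 0.31 on the arrays labelled IRE1 RNAi (-0.94 to 1.56), beside a change of 5.86 in control cells. Pgi had the lowest differences, -0.51 (-2.03 to 1.02) and -1.0 (-2.54 to 0.54). All-probe medians were themselves -0.28 and -0.44, and the members' medians were -0.19 and -0.38. Between the RNAi arms, 0 of 10 members and 0.0% of 5417 probes passed (limma, 73 under 0.05 unadjusted), with differences from -0.49 for Pgi to 0.21 for Pfk and 0.08 for Ldh. The intervals of the enzymes are wide against their changes, so a loss as large as the rise itself was within the interval for some, such as Pgi.

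**Figure D3:**
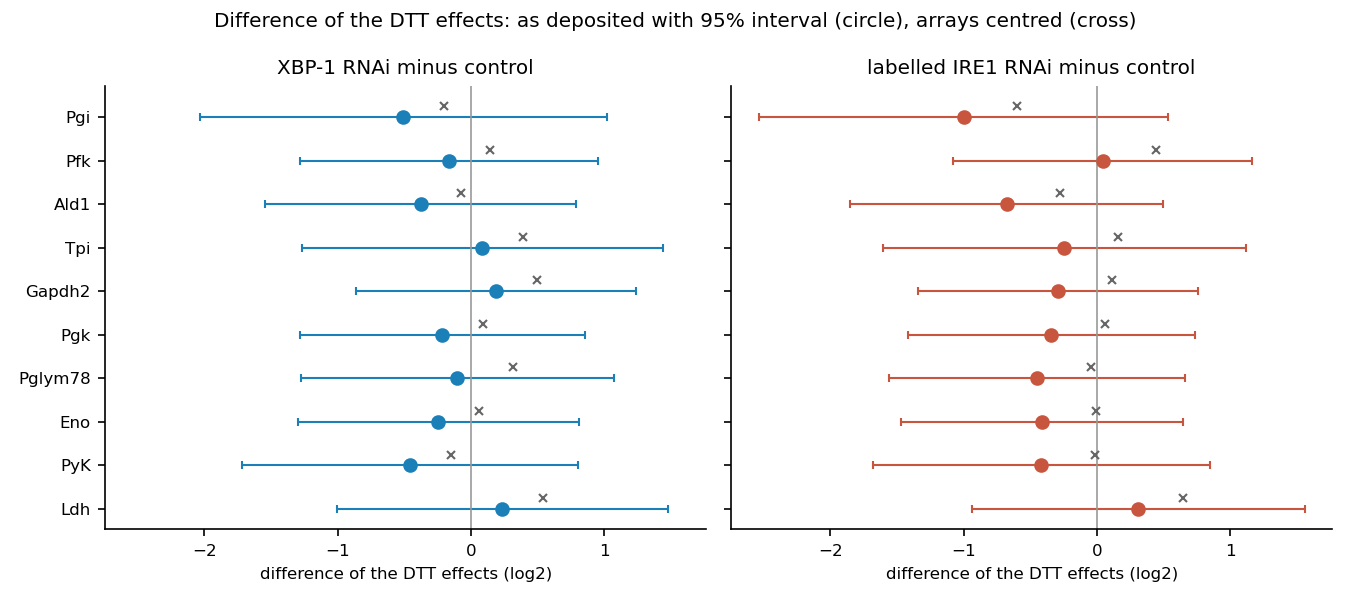
Difference of the DTT effect from that in control cells (x axis, log2) for each member (y axis), for XBP-1 RNAi on the left and the arrays labelled IRE1 RNAi on the right. Circles are values as deposited with their 95% interval, and crosses the values after centring each array on its median. Every interval includes 0, and Ldh lies at 0.24 and 0.31.

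RNAi by itself did not move any member past the threshold. Without DTT, all 10 members had values above control under XBP-1 RNAi, from 0.23 for Pgk to 0.54 for Pfk with Ldh at 0.43, and the median of all probes was also 0.22. None of the 10 passed, nor did any of 5729 probes (0.0%; limma, 77 under 0.05 unadjusted). For the label IRE1 RNAi without DTT the differences ran from -0.24 for PyK to 0.61 for Gapdh2, with Ldh at -0.05, and 0 of 10 members and 0.0% of 5914 probes passed (limma, 24 under 0.05 unadjusted). With DTT, XBP-1 RNAi differed from control by -0.02 for Pgi to 0.71 for Gapdh2, with Ldh at 0.67 and 0 of 10 past the threshold, against 2.04% of 5888 probes (401 under 0.05 unadjusted). The arrays labelled IRE1 RNAi with DTT ran from -0.87 for Pgi to 0.32 for Gapdh2, with Ldh at 0.27, and 0 of 10 passed, against 2.3% of 5868 probes (899 under 0.05 unadjusted). With the arrays centred and the replicate letter as a block, Ldh alone passed in both DTT comparisons, at 0.76 (adjusted p = 0.018) and 0.68 (adjusted p = 0.0282), 1 of 10 members where 2.35% and 5.76% of all probes were higher. Under quantile normalization the same Ldh differences were -0.02 and -0.28.

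The probes whose pattern was most like that of Ldh belonged to other functions. Over the 16 arrays with a value for Ldh, and among the 2737 probes measured on all arrays, the 5 highest Pearson correlations were with the glutathione transferase GstE8 (0.987), the receptor tyrosine phosphatase Ptp52F (0.987), JhI-26 (0.983), the glutathione transferase GstE11 (0.982) and CG2017 (0.977). All 5 rose with DTT in control cells, by 3.04 to 4.04. Among the members Pfk was closest at 0.961 (rank 11), then Gapdh2 at 0.932, Ald1 at 0.876, Eno at 0.866 and Tpi at 0.847. Pgi at 0.584 and PyK at 0.569 were further off and Pgk was negative at -0.497. The arrays fall into those with and without DTT, so these values mostly restate how far apart the conditions are.

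Of 10 tested probes for sugar entry and storage 2 rose in control cells, 4 under XBP-1 RNAi and 3 on the arrays labelled IRE1 RNAi. Of all probes 7.25%, 4.53% and 3.48% rose, and the list medians were 0.76, 0.95 and 0.47. In each arm 1 of the 10 fell, near the share of all probes in the RNAi arms (11.8% and 10.5%), against 4.45% in control cells. The trehalose transporter Tret1-1 rose in each, by 2.22 ± 0.41, 3.01 ± 0.41 and 2.94 ± 0.46, and so did the phosphoglucomutase Pgm1, by 1.82 ± 0.38, 1.79 ± 0.38 and 1.63 ± 0.38. Glycogen phosphorylase (Glyp) rose by 1.90 ± 0.37 under XBP-1 RNAi. Its changes of 0.99 ± 0.37 in control cells and 1.08 ± 0.37 on the arrays labelled IRE1 RNAi missed the threshold (limma, adjusted p = 0.0907 and 0.0502). Both passed with the block (adjusted p = 0.0148 and 0.00548). The trehalase gene Treh rose by 1.59 ± 0.44 under XBP-1 RNAi and by 1.62 ± 0.49 on the arrays labelled IRE1 RNAi, calls that were lost without replicate C without DTT in either arm and without replicate B with DTT in the former. In control cells the change of Treh was 1.20 ± 0.44 (limma, adjusted p = 0.0809, with the block 0.00201). The gene that fell was Pfrx in each arm, by -1.35 ± 0.36, -1.45 ± 0.36 and -2.0 ± 0.36, of which the value under XBP-1 RNAi was named after it was seen. Pfrx encodes the enzyme that makes and degrades fructose 2,6-bisphosphate, an activator of Pfk, and its control call was lost without replicate C with DTT (-1.27, adjusted p = 0.0542). None of the 3 tested isozymes of the members passed in any arm in limma on the values as deposited (0 at an unadjusted p under 0.05), with medians of 0.58, 0.63 and 0.31. With each array centred on its median, Ald2 passed in all 3 arms (0.57, 0.81 and 0.73, adjusted p = 0.0372, 0.00359 and 0.0185). Gapdh1 then passed in the RNAi arms (0.86 and 0.59, adjusted p = 0.00229 and 0.0304). With centring 11.9%, 14.6% and 8.9% of all probes rose.

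The shares of all probes that fell were 4.45% in control cells, 11.8% under XBP-1 RNAi and 10.5% on the arrays labelled IRE1 RNAi, and the counts downstream of pyruvate stand beside these. The shares that rose were 7.25%, 4.53% and 3.48%. In control cells 1284 of 5935 probes, in either direction, had an unadjusted p under 0.05. In the list of pyruvate dehydrogenase and mitochondrial pyruvate entry, 0 of 8 probes passed in control cells (limma). The 8 include Mppe, a metallophosphoesterase outside that function, which passed in no arm. In control cells 2 of the 8 were lower at an unadjusted p under 0.05, and 1, CG7430 at -1.01, passed with the block (adjusted p = 0.0117). In the XBP-1 arm 1 fell, and 2 fell on the arrays labelled IRE1 RNAi. The count under XBP-1 RNAi, 1 of 8, is near the share of all probes. The genes were CG7430, the dihydrolipoamide dehydrogenase, at -1.34 ± 0.39 and -1.75 ± 0.39, and Pdhb, a pyruvate dehydrogenase subunit, at -1.37 ± 0.44. The CG7430 call under XBP-1 RNAi was lost without replicate A without DTT or C with DTT, and the Pdhb call without replicate A without DTT or B or C with DTT. In the list of tricarboxylic acid cycle and malate enzymes 1 of 16 probes rose and 0 fell in control cells (limma; 2 lower at an unadjusted p under 0.05). In the RNAi arms 1 rose in each, and 8 of 16 fell under XBP-1 RNAi and 8 of 17 on the arrays labelled IRE1 RNAi. The count that rose, 1 in each arm, is near the share of all probes. The medians were -0.49, -1.03 and -0.82. The riser was Men, the NADP-dependent malic enzyme, which is not an enzyme of the cycle (2.04 ± 0.36, 1.56 ± 0.36 and 1.47 ± 0.36, the last named after it was seen). Among those that fell were the succinate dehydrogenase subunit SdhA (-1.73 ± 0.36 under XBP-1 RNAi and -1.70 ± 0.36 on the arrays labelled IRE1 RNAi) and the succinyl-CoA synthetase subunit ScsbetaG (-1.55 ± 0.38 and -1.74 ± 0.42). The aconitase mAcon1 (-1.54 ± 0.36 and -1.46 ± 0.36), the citrate synthase kdn (-1.53 ± 0.36 and -1.61 ± 0.36) and the fumarase Fum1 (-1.42 ± 0.37 and -1.54 ± 0.37) also fell in both arms. The mAcon1 value on the arrays labelled IRE1 RNAi and the kdn and Fum1 values under XBP-1 RNAi were named after they were seen. In the test of the difference of the DTT effects from control, 0 probes of this list passed (limma), of 16 tested in each, and 2 (XBP-1) and 3 (labelled IRE1) were lower at an unadjusted p under 0.05.

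Side branches split by gene. For gluconeogenesis and glycerol phosphate 6 of 7 probes rose in control cells, where 7.25% of all probes did. The 7 probes stand for 6 genes, since fbp has more than 1 probe. In the RNAi arms 1 rose and 1 fell, of 4 probes tested (XBP-1) and of 6 (labelled IRE1). Of all probes in those arms 4.53% and 3.48% rose and 11.8% and 10.5% fell. The control risers included the glycerol-3-phosphate oxidases Gpo1 (3.06 ± 0.44) and Gpo2 (1.81 ± 0.35), the phosphoenolpyruvate carboxykinase Pepck2 (2.31 ± 0.41) and a probe of the fructose-1,6-bisphosphatase fbp (1.89 ± 0.39). Gpo2, Pepck2 and that fbp probe were not tested under XBP-1 RNAi, nor was Gpo2 on the arrays labelled IRE1 RNAi. The other fbp probe was tested in every arm and rose in control cells by 1.65 ± 0.38 (limma, adjusted p = 0.00327). Its changes of -0.17 ± 0.38 under XBP-1 RNAi and -0.22 ± 0.38 on the arrays labelled IRE1 RNAi did not pass (adjusted p = 0.835 and 0.828). In the difference of the DTT effects from control 0 of 4 (XBP-1) and 0 of 6 (labelled IRE1) passed, with 1 and 3 lower at an unadjusted p under 0.05. With DTT, 2 of 7 were lower than control on the arrays labelled IRE1 RNAi (1.89% of all probes) and 0 of 6 under XBP-1 RNAi (1.94%). Gpo1 rose also under XBP-1 RNAi (2.29 ± 0.44) and on the arrays labelled IRE1 RNAi (2.67 ± 0.44). Gpdh1, the cytosolic glycerol-3-phosphate dehydrogenase, fell in those arms (-1.35 ± 0.46 and -1.60 ± 0.46), and it lost the call without any of 4 arrays under XBP-1 RNAi, down to -0.93, and without either of 2 on the arrays labelled IRE1 RNAi. In control cells its change was -0.87 (adjusted p = 0.286, with the block 0.0386). Of 4 probes of the pentose phosphate pathway 0 passed in control cells (limma; 1 lower at an unadjusted p under 0.05), 1 fell in the XBP-1 arm and 2 on the arrays labelled IRE1 RNAi. Pgd fell in both RNAi arms (-1.49 ± 0.42 and -1.57 ± 0.42) and Rpi in the last (-1.06 ± 0.34), while in control cells the change of Pgd was -0.96 (adjusted p = 0.164, with the block 0.0187). Each RNAi call was lost when replicate A with DTT was left out. The call of Rpi was lost without any of 5 arrays, and that of Pgd in the XBP-1 arm also without replicate C with DTT.

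Among hypoxia genes and regulators of glycolytic genes, 2 of 13 probes rose in control cells, 5 of 12 under XBP-1 RNAi and 3 of 12 on the arrays labelled IRE1 RNAi, and 0 fell. Of all probes 7.25%, 4.53% and 3.48% rose and 4.45%, 11.8% and 10.5% fell. Thor, the inhibitor of translation initiation known as 4E-BP, rose by 2.73 ± 0.42, 4.27 ± 0.42 and 3.53 ± 0.42, and scyl, a relative of mammalian REDD1, by 2.55 ± 0.53, 3.28 ± 0.52 and 2.65 ± 0.53. The related chrb rose by 1.36 ± 0.47 under XBP-1 RNAi (adjusted p = 0.0425), a call lost when any of 6 arrays was left out, with quantile normalization (0.95, adjusted p = 0.185) and with trend and robust eBayes (adjusted p = 0.256). The hypoxia factor sima, the fly counterpart of HIF-1 alpha, had a change of 0.76 ± 0.45 in control cells (adjusted p = 0.358, with the block 0.0435) and rose by 2.13 ± 0.40 under XBP-1 RNAi and 1.43 ± 0.40 on the arrays labelled IRE1 RNAi (adjusted p = 0.0148, lost without replicate C without DTT or B with DTT). The factor crc, the fly ATF4, had changes of 0.79 ± 0.40 (adjusted p = 0.257), 1.33 ± 0.40 (adjusted p = 0.0186) and 0.79 ± 0.40 (adjusted p = 0.218), and the call under XBP-1 RNAi was lost without replicate B of either group. On the arrays labelled IRE1 RNAi crc passed with centring (1.07, adjusted p = 0.0128) and with quantile normalization (1.11, adjusted p = 0.0237). ERR, the estrogen-related receptor that drives glycolytic genes in the fly larva, had changes of -0.02 ± 0.38, -0.12 ± 0.38 and -0.51 ± 0.43, none past the threshold. In the difference of the DTT effects from control, 0 of 12 probes of this list passed for either RNAi arm (limma). Of all probes 0.802% (XBP-1) and 0.0894% (labelled IRE1) did, and 2 and 0 of the list were higher at an unadjusted p under 0.05. With DTT, 1 of 12 was higher than control under XBP-1 RNAi and 0 of 12 on the arrays labelled IRE1 RNAi. The shares of all probes were 0.102% and 0.409%.

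**Figure D4:**
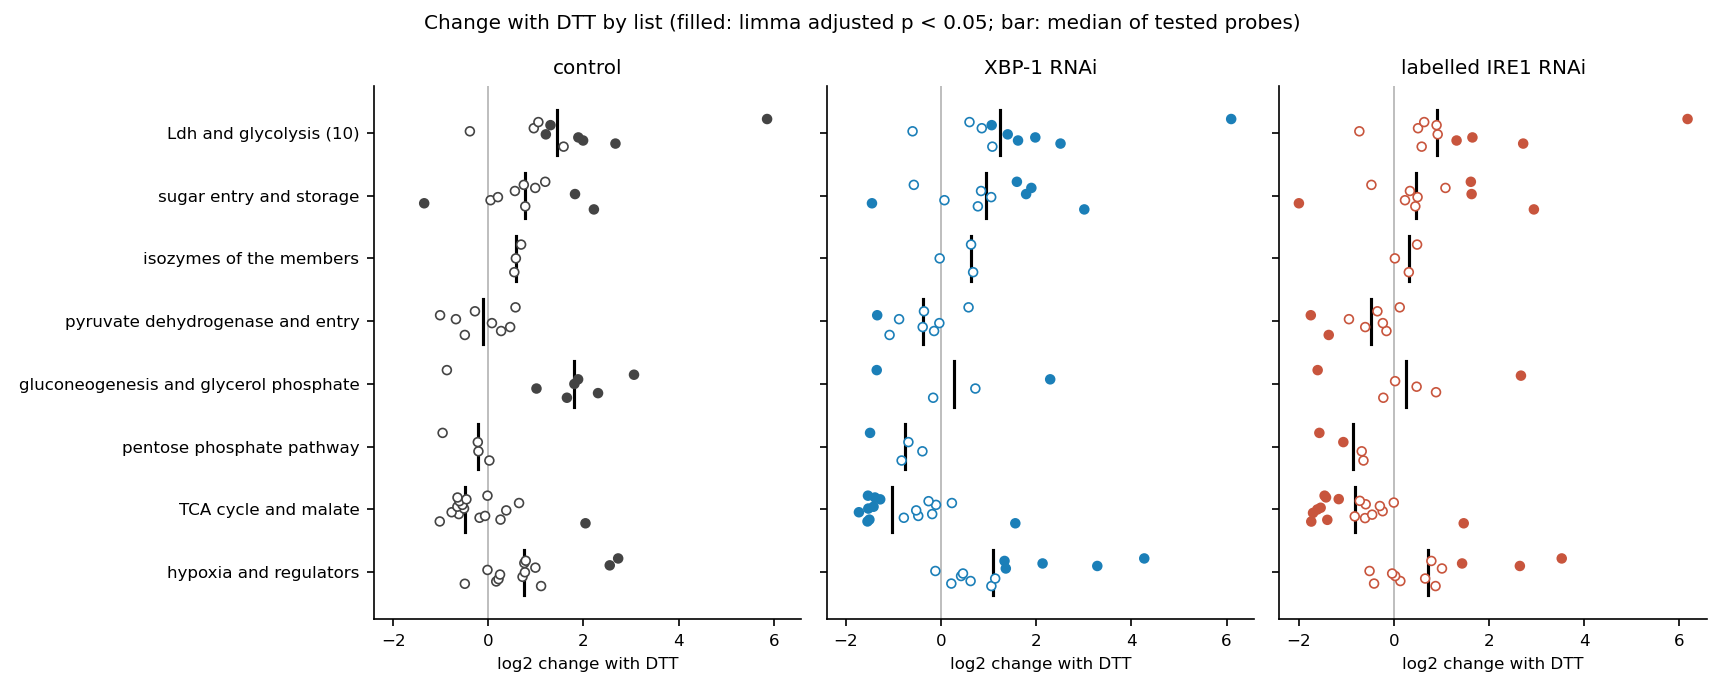
Change with DTT on the log2 scale (x axis) of every tested probe of the 10 members and of 7 further lists (y axis), in control cells, under XBP-1 RNAi and on the arrays labelled IRE1 RNAi. Each circle is a probe, filled where the limma adjusted p is under 0.05, and the black bar is the median. The member medians are 1.45, 1.24 and 0.91, and the medians of the list of tricarboxylic acid cycle and malate enzymes -0.49, -1.03 and -0.82.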

How the data were processed

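RNA of S2 cells was measured on 18 arrays, 6 groups of 3, grouped by sample title. Per the labels, normalization by the authors was done in NOMAD, a microarray database, and dim, uneven or defective spots were taken out. The deposited values were read as log2 ratios of sample (Cy5) to reference (Cy3), although neither base nor direction is stated. Of the cells, 18.8% are empty. Probe numbers were read as CG numbers, since the platform symbols matched none of the 10 members. A limma 3.58.1 model (R 4.3.3) of 6 group means was fitted to each probe, with Benjamini-Hochberg adjustment over all probes tested in a contrast, 2-sided, threshold 0.05; the test was tried on simulated data first. The ± values are SE unless given as SD. Each list names at most the 4 largest changes past the threshold, and some further values of listed genes were added after they were seen. crc, sima and ERR were always named. Members and lists were chosen with earlier results of these data known. The labels do not tie the letters to separate cultures, so the p-values cover only the spread among these arrays, possibly a technical one. Within each arm same-letter arrays with and without DTT deviated together (r from 0.231 to 0.684), which comes from the data, not the labels. The main fit has no term for the letters, so its SE and p-values do not use them. The block is a term for each letter shared by all 18 arrays, not a pairing within each arm. On the values as deposited the block fit uses 1 common variance for all probes. With centring and the block each probe keeps part of its own spread. Alternatives were centring, quantile normalization, the block, both combined, stricter filters, another eBayes setting, contrast arrays only and leaving out each array. Sequences were not used here.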

Additional observations from a re-analysis of the deposited data

How the results depend on the processing

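Ldh and Pfk rose in all 3 arms under every alternative that could test them; the setting with probes complete on all arrays, in the RNAi arms that with 3 values in each group, and leaving out an array where that left Ldh 1 value in a group, could not test Ldh. The count of members past the threshold on the arrays labelled IRE1 RNAi was 7 with centring, 7 with quantile normalization and 8 with centring and replicate block, where the share of all probes that rose was 8.9%, 9.51% and 13.4%, against 3.48% as deposited. Leaving out an array gave 2 to 5 there (2 without DTT replicate B, 5 without DTT replicate A). With centring and block it was 1 (Ldh) for either RNAi against control with DTT. The block alone changed no other call of a member than those given above. The cause was not tested in any of these cases. Some differences between groups changed sign; of these only Ldh with DTT passed in any setting (centring and block). Under quantile normalization Ldh became -0.30, -0.65 and -0.35 in the 3 differences of DTT effects (XBP-1 minus control, IRE1 minus control, IRE1 minus XBP-1), 0.37 for IRE1 without DTT, and -0.02 and -0.28 for XBP-1 and IRE1 with DTT, and Pgk became -0.26 for XBP-1 without DTT. Ldh became -0.10 with the block in the difference of the RNAi arms and 0.03 with centring for IRE1 without DTT. With centring, with or without the block, Pgi became 0.07 for XBP-1 with DTT and the ERR change under XBP-1 RNAi became 0.06. Leaving out an array gave ranges that include 0: for XBP-1 minus control Ldh -0.20 to 0.62; for IRE1 minus control Pgi -1.58 to 0.05 and Ldh -0.11 to 0.58; for IRE1 minus XBP-1 Pgi -1.07 to 0.56, Pfk -0.14 to 0.56 and Ldh up to 0.51; for IRE1 without DTT PyK -0.44 to 0.10 and Ldh -0.31 to 0.12; for XBP-1 with DTT Pgi -0.39 to 0.42; for IRE1 with DTT Pgi -1.45 to 0.18 and Ldh -0.16 to 0.48; for ERR -0.25 to 0.29 in control cells and up to 0.14 under XBP-1 RNAi. Over all members and these 7 comparisons, 46 of 538 values under settings that keep all arrays changed sign. With trend and robust eBayes, Gapdh2 in control cells, Eno and chrb under XBP-1 RNAi and Rpi on the arrays labelled IRE1 RNAi missed the threshold. With centring and block 17.0% of all probes rose and 17.0% fell in control cells, against 7.25% and 4.45% as deposited, and more list probes passed: 9 of the tricarboxylic acid cycle and malate list fell in place of 0 (1 with the block alone), 6 for sugar entry and storage rose in place of 2 (4 with the block) and 6 of the hypoxia and regulator list rose in place of 2 (5 with the block). The block alone added 1 fall in control cells in each of the pyruvate dehydrogenase, gluconeogenesis and pentose phosphate lists (CG7430, Gpdh1, Pgd), and under XBP-1 RNAi it gave 3 falls in place of 1 for the first and 2 in place of 1 for the last. The share of all probes that fell also grew with the block, from 4.45% to 7.94% in control cells and from 11.8% to 17.9% under XBP-1 RNAi. The alternatives for genes of the other lists were chosen after seeing the data. Spot signal and background were not used; precision is limited by having 3 arrays a group, fewer where spots were taken out.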
